A study of Mus musculus with 1 sample.

Results

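Tal1, Lyl1, Lmo2, Ldb1, Tcf3 and Tcf12 encode the factors of the TAL1 and LMO2 transcription complex, and these 6 genes, taken by symbol from the 32285 gene rows of the matrix, are described here across groups of marrow progenitors. The values were unique molecular identifier (UMI) counts from 1 single-cell RNA-seq library, control LK cells replicate 1, so differences had no replicate check and no test was possible. LK cells are lineage-negative, Kit-positive bone marrow cells, here from the femora and tibiae of C57BL/6 mice. The mice carried Brd9 fl/fl without the Mx1-Cre deleter, which is driven by an interferon-responsive promoter, and had been given pIpC, an interferon inducer, at 20 mg/kg in 3 doses, 8 weeks before the cells were taken. The labels name a CD45.2+ donor and a CD45.1+ recipient, whereas the methods and the series text describe primary mice, and this was not settled. The number of mice behind the library was not given in the sources used here. A library of Brd9-deleted cells was not analysed here.

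TAL1 and LYL1 are related basic helix-loop-helix proteins that bind DNA at E-boxes as dimers with an E protein, of which TCF3, TCF12 and TCF4 are the mammalian members. LMO2 does not bind DNA itself but bridges the dimer to a GATA factor and to LDB1, an adaptor that self-associates and can hold distant sites together. The complex is needed for the making of blood stem cells and for red cell and platelet development, while E proteins without TAL1 are known for driving lymphoid development and are blocked by the ID proteins.

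Of 8817 barcodes with 167452386 UMIs in all, 7645 passed the study's limits on UMIs, genes and mitochondrial share, with 1592 to 49991 UMIs each. Cells were gated by scores over marker lists that held none of the 6 genes. The score of a list was the mean over its markers of log2(1 + UMIs per 10000 UMIs of the cell). A cell was gated when its score reached a set value and at least 3 markers had a UMI, and cells that passed the gates of 2 lineages were left out. A gate is a range of a score, not a cell type. The stem gate held 684 cells (Procr, Hlf, Mecom and others), the erythroid gate 1132 (Klf1, Rhag, Car1), the megakaryocyte gate 491 (Pf4, Itga2b, Treml1), the lymphoid-primed gate 213 (Dntt, Flt3, Satb1) and the myeloid gate 3141 (neutrophil or monocyte list). A further 132 basophil or mast cells are given beside these. Another 809 cells (10.6%) passed gates of 2 lineages and 1013 (13.3%) passed none.

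The gates were drawn on these lists, so the sums below describe the gates and are no check of their names. All 8 stem, 9 erythroid, 9 megakaryocyte, 7 lymphoid-primed, 8 neutrophil and 8 monocyte markers were detected in their own gates. Levels are given as CPM, the gene's counts per 1000000 UMIs summed over the cells of a gate. The summed stem list reached 1253 CPM in the stem gate against 21.7 to 183 in the other gates, and the erythroid list 6663 CPM in the erythroid gate against 116 to 297. The lymphoid-primed list summed to 1974 CPM in its own gate and to at most 97.0 elsewhere. Markers of other types were present too: the neutrophil list summed to 1054 CPM in stem-gated and 1309 CPM in lymphoid-primed cells, against 22950 CPM in myeloid cells, and the lymphoid-primed gate held 113 CPM of the dendritic marker Cox6a2 and 14.1 CPM of the B lineage gene Ebf1. The part of these cells in the levels below was not tested. Within 10% of the set value lay 61 stem, 39 erythroid, 33 megakaryocyte, 14 lymphoid-primed and 194 myeloid cells.

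Depth differed between gates. Median UMIs per cell were 8344 in stem-gated cells, 33076 in erythroid, 16446 in megakaryocyte, 14776 in lymphoid-primed and 21255 in myeloid cells. A CPM is therefore a share of a cell's RNA, and UMIs per cell of a member are given where that reading turned the direction of a comparison with the stem gate. Intervals are 95% and exact (Poisson for levels, binomial for folds and shares), and they cover counting error only. Counts came from the 3′ ends of transcripts, so levels were compared between gates for 1 gene, and parts of a joint count of related genes were compared between gates only.

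Tal1 (ENSMUSG00000028717) is the helix-loop-helix subunit required for red cell and megakaryocyte development. It lies at chr4:115056426-115071755 on the plus strand of GRCm38. The 250 bases before its outer RefSeq start in GRCm38.p6, at chr4:115056176-115056425, are shown because GATA factors sit in the same complex as its product. Capitals mark the 1 match to GATAA on either strand, 205 bases before the start, in the 5′ to 3′ direction of the gene.
Tal1 upstream: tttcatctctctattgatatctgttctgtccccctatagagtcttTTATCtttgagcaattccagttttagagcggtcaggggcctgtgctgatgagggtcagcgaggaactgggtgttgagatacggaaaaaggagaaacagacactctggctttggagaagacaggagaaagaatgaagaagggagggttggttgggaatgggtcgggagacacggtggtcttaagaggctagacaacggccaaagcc
The letters GATAA were found on either strand in 22.6% of 32851 promoter windows of this length, so the match is a description and not a site. The window before the other RefSeq start of Tal1 held none.

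Tal1 was high in the stem, erythroid and megakaryocyte gates and low in the lymphoid-primed and myeloid gates. Its level was 98.8 CPM in stem-gated cells (interval 91.3 to 107; 635 UMIs), 111 CPM in erythroid cells (108 to 115; 4055 UMIs) and 125 CPM in megakaryocyte cells (117 to 133; 1068 UMIs). In lymphoid-primed cells it was 24.1 CPM (19.2 to 29.9; 82 UMIs) and in myeloid cells 12.0 CPM (11.2 to 12.9; 817 UMIs). The order was megakaryocyte, erythroid, stem, basophil or mast (52.7 CPM), lymphoid-primed and myeloid, and no intervals of neighbours overlapped. Myeloid cells held 9.25-fold less Tal1 than erythroid cells (8.58 to 9.99). Per cell the gap to the stem gate was wider, with 3.58 Tal1 UMIs in an erythroid cell and 0.928 in a stem-gated cell.

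The low levels of Tal1 were set beside those of Gata1, an erythroid and megakaryocyte gene that was in no marker list. Myeloid cells held 10.8% of the erythroid level of Tal1 and 2.17% of that of Gata1, and lymphoid-primed cells 21.7% and 2.62%. Outside the erythroid gate the genes had different levels, as Gata1 was at 8.09 CPM in stem-gated and 49.4 CPM in megakaryocyte cells. The part of RNA free in the droplets in the low Tal1 counts was not tested.

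Lyl1 (ENSMUSG00000034041), the close relative of Tal1, lies at chr8:84701457-84704715 on the plus strand, opposite the annotated gene Nfix. Its upstream window, chr8:84701207-84701456 of GRCm38.p6, is shown beside that of Tal1 because the products share partners while the levels below ran in different orders. Capitals mark 5 matches to GGAA on either strand, the core letters bound by ETS factors, at 181, 168, 108, 65 and 52 bases before the start.
Lyl1 upstream: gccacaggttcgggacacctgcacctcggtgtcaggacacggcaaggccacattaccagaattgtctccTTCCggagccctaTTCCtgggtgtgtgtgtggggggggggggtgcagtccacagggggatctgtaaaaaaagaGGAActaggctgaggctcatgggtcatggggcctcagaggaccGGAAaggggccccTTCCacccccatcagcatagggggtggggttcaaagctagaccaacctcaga
GGAA was present in 93.4% of the 32851 windows, and GATAA was not found in this one. The Tal1 window above held 4 matches to GGAA.

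Lyl1 was highest in the stem and lymphoid-primed gates and lowest in the erythroid gate and in basophil or mast cells. Its level was 138 CPM in stem-gated cells (129 to 147; 887 UMIs), 115 CPM in lymphoid-primed (103 to 127), 83.5 CPM in myeloid (81.3 to 85.7), 57.6 CPM in megakaryocyte (52.7 to 62.9) and 39.0 CPM in erythroid cells (37.0 to 41.1). Basophil or mast cells had 34.7 CPM (26.1 to 45.3), which overlapped the erythroid interval, and every other pair of neighbours was separate. The share of RNA that was Lyl1 was thus 3.54-fold lower in erythroid than in stem-gated cells (3.25 to 3.85). The number of Lyl1 UMIs per cell had overlapping intervals in these 2 gates, at 1.26 (1.19 to 1.32) in erythroid and 1.30 (1.21 to 1.39) in stem-gated cells. It was above the stem value in myeloid (1.81, 1.76 to 1.85) and lymphoid-primed cells (1.83, 1.65 to 2.02), although the share of RNA was lower there.

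**Figure D1:**
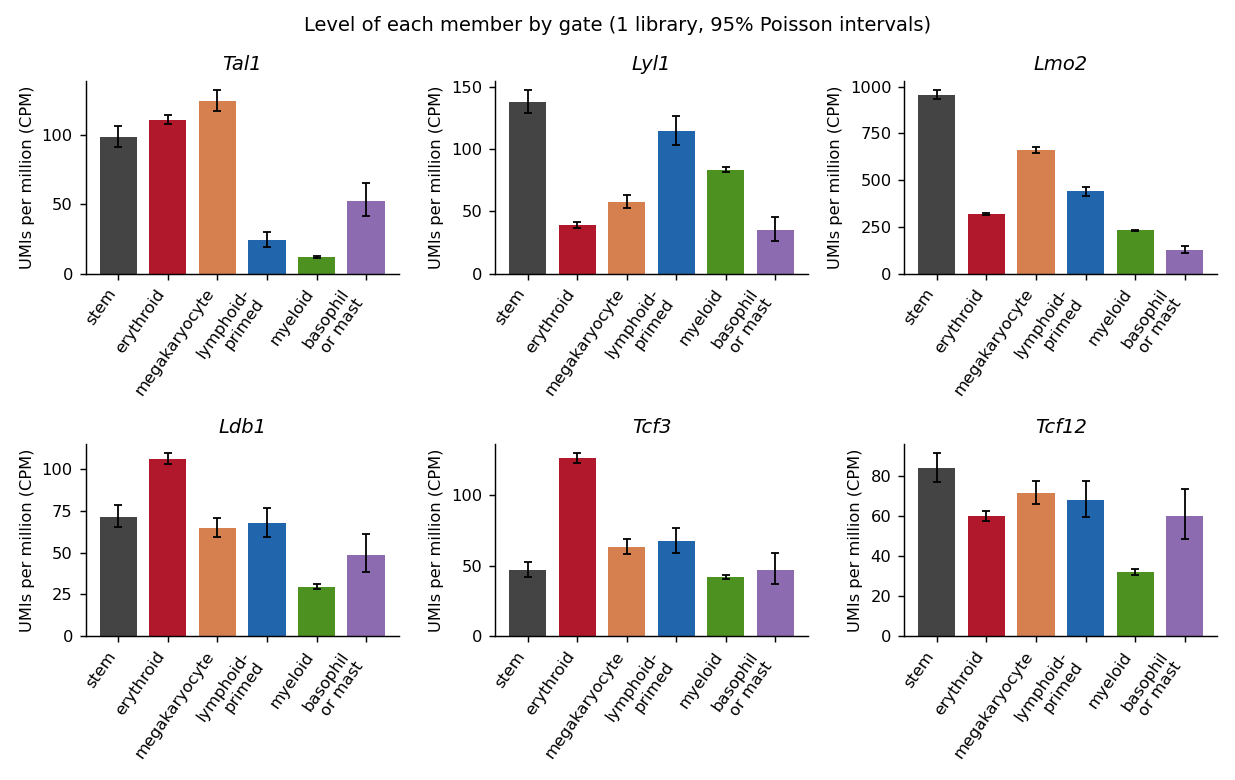
Level of each of the 6 genes (CPM, vertical axes from 0) in 6 gates of 1 library, with 95% Poisson intervals as error bars. Tal1 sat between 98.8 and 125 CPM in the stem, erythroid and megakaryocyte gates and at or under 24.1 CPM in the lymphoid-primed and myeloid gates, while Lmo2 and Lyl1 were highest in the stem gate and Tcf3 and Ldb1 in the erythroid gate.

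The balance of these paralogues was also read as a ratio, which does not depend on the total UMIs of a cell. There were 0.716 Tal1 UMIs per Lyl1 UMI in stem-gated cells (0.646 to 0.794). The ratio was 2.85 in erythroid (2.68 to 3.03), 2.17 in megakaryocyte (1.95 to 2.42) and 1.52 in basophil or mast cells (1.06 to 2.18). It was 0.210 in lymphoid-primed (0.164 to 0.267) and 0.144 in myeloid cells (0.134 to 0.155). The part of the joint UMIs that was Tal1 thus ranged from 74.0% in erythroid to 12.6% in myeloid cells. The erythroid ratio was 3.98 times that of the stem gate (3.54 to 4.48). As UMI recovery can differ between genes, a ratio of 1 does not mean equal transcript numbers. Whether recovery differed between gates was not tested.

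Lmo2 (ENSMUSG00000032698; chr2:103957986-103981878, plus strand) encodes the bridging LIM-only protein. It was most abundant in the stem gate, at 957 CPM (933 to 981; 6148 UMIs). The level was 662 CPM in megakaryocyte (645 to 680), 439 CPM in lymphoid-primed (417 to 462) and 317 CPM in erythroid cells (311 to 323). Myeloid cells had 232 CPM (228 to 235) and basophil or mast cells 128 CPM (111 to 147), and no intervals overlapped. The lower share in erythroid cells went with a larger total: an erythroid cell held 10.2 Lmo2 UMIs and a stem-gated cell 8.99 (8.77 to 9.22). A megakaryocyte cell held 11.5 (11.2 to 11.8), also above the stem gate although its CPM was lower. Myeloid cells, with 5.01 UMIs per cell, and lymphoid-primed cells, with 7.02, were lower on both readings. The 20 cells that passed a T or innate lymphoid gate held 1 Lmo2 UMI among 115038 UMIs, with an upper limit of 48.4 CPM. The same cells held 2 Tal1 UMIs, at 17.4 CPM (2.11 to 62.8), 6 of Lyl1, 14 of Ldb1, 8 of Tcf3 and 8 of Tcf12. The part of free RNA in these counts was not tested.

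Ldb1 (ENSMUSG00000025223; chr19:46031570-46045214, minus strand) encodes the dimerising adaptor. It was highest in erythroid cells, at 106 CPM (103 to 110), and lowest in myeloid cells, at 29.7 CPM (28.4 to 31.0). Between them the stem gate had 71.6 CPM (65.2 to 78.4), the lymphoid-primed gate 67.6 (59.1 to 76.9) and the megakaryocyte gate 64.9 (59.6 to 70.5). These 3 gates could not be separated, since the interval of each ratio between them held 1. Per cell they differed, with 0.673 Ldb1 UMIs in a stem-gated (0.612 to 0.737), 1.08 in a lymphoid-primed and 1.13 in a megakaryocyte cell (1.04 to 1.23). Basophil or mast cells had 48.8 CPM (38.5 to 61.1), whose interval overlapped those of the lymphoid-primed and megakaryocyte gates.

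Tcf3 (ENSMUSG00000020167; chr10:80409514-80433647, minus strand) encodes the E12 and E47 proteins. Its level was 126 CPM in erythroid cells (122 to 130; 4590 UMIs), above every other gate. Lymphoid-primed cells had 67.3 CPM (58.8 to 76.6) and megakaryocyte cells 63.2 CPM (58.0 to 68.8), and these neighbours could not be separated. Basophil or mast (46.9 CPM), stem (46.8 CPM, 41.7 to 52.4) and myeloid cells (42.0 CPM, 40.5 to 43.6) had the lowest levels, with overlapping intervals. An erythroid cell held 4.05 Tcf3 UMIs and a stem-gated cell 0.440 (0.392 to 0.493). A myeloid cell held 0.909 (0.876 to 0.943), above the stem gate.

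Tcf12 (ENSMUSG00000032228; chr9:71842688-72111871, minus strand) encodes HEB. It varied less than Tcf3 outside the myeloid gate. The level was 83.9 CPM in stem-gated (76.9 to 91.3), 71.5 CPM in megakaryocyte (66.0 to 77.4), 67.9 CPM in lymphoid-primed (59.4 to 77.2) and 60.0 CPM in erythroid cells (57.5 to 62.6). The lymphoid-primed level could not be separated from the megakaryocyte or the erythroid one. Basophil or mast cells had 59.8 CPM, while myeloid cells, at 31.9 CPM (30.6 to 33.3), lay below all of them. Per cell the order of the first gates turned, with 0.788 Tcf12 UMIs in a stem-gated (0.723 to 0.857), 1.25 in a megakaryocyte, 1.08 in a lymphoid-primed and 1.93 in an erythroid cell (1.85 to 2.02). The annotation places 7 unverified genes on the same strand within Tcf12, and whether they affected its counts was not tested.

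With Tcf4, the third E protein, the E-protein UMIs of each gate summed to a whole of which the parts could be compared. Tcf3 made up 55.1% of them in erythroid cells (54.0 to 56.2) and 15.7% in stem-gated cells (14.1 to 17.4). The Tcf4 part was 68.8% in lymphoid-primed (66.4 to 71.2), 56.3% in stem-gated and 18.6% in erythroid cells. Megakaryocyte cells (26.3% Tcf3, 29.7% Tcf12, 44.0% Tcf4) and myeloid cells (31.5%, 23.9% and 44.6%) lay between. Tcf12 kept to a narrow range of 23.9% to 34.8% in every gate but the lymphoid-primed one, where it was 15.7%.

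**Figure D2:**
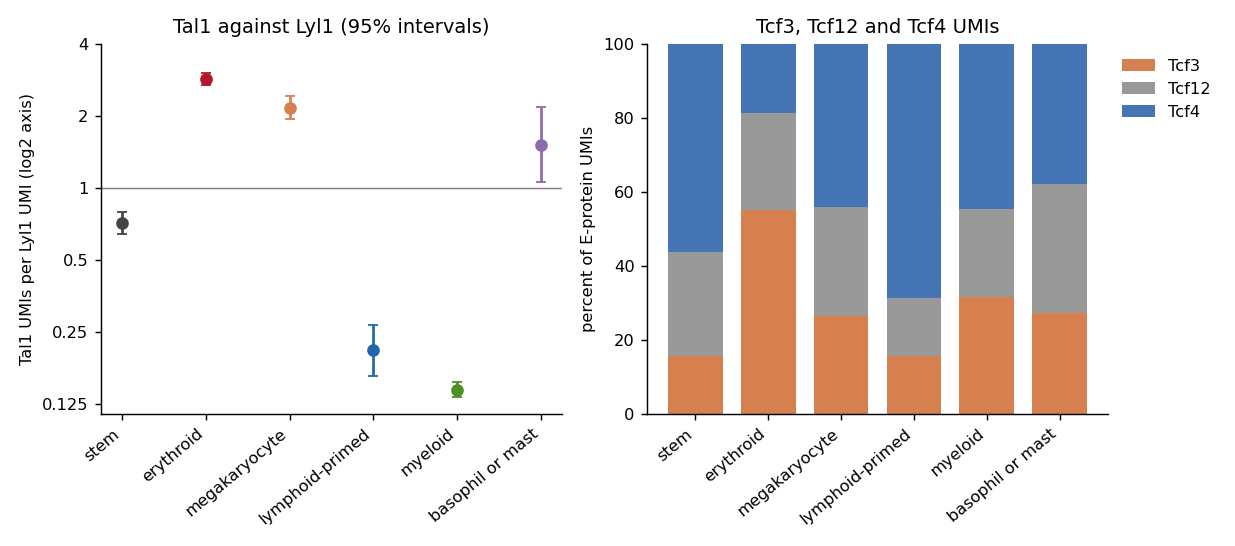
Left, Tal1 UMIs per Lyl1 UMI in each gate with 95% intervals, on a log2 axis. Right, percent of the summed Tcf3, Tcf12 and Tcf4 UMIs that each gene gave. The ratio was above 1 in the erythroid, megakaryocyte and basophil or mast gates and below 1 in the other 3, and the Tcf3 part ranged from 15.5% in lymphoid-primed to 55.1% in erythroid cells.

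Each gate was next set against the stem gate, with at least 2-fold as the size called. In erythroid cells 1 of 6 members was higher, Tcf3 at 2.69-fold (2.39 to 3.03), where 13.4% of 11320 genes with at least 50 UMIs were. Lyl1 and Lmo2 were lower, at 0.283 and 0.331 of the stem level, where 34.1% of genes were. The member counts were near these background shares. Ldb1 was 1.48-fold (1.35 to 1.64) and Tal1 1.13-fold (1.04 to 1.23) the stem level, and Tcf12 0.716 of it. The median fold was 0.898 over the members and 0.778 over all genes tested.

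In megakaryocyte cells no member was 2-fold higher, where 4.84% of 10815 genes were, and Lyl1 was lower at 0.418 (0.373 to 0.467), where 13.3% of genes were. Tcf3 was 1.35-fold and Tal1 1.26-fold the stem level, while Lmo2 was at 0.692. The members' median of 0.879 lay beside 0.949 over all genes.

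Lymphoid-primed cells had no member 2-fold higher (background 5.78% of 10366 genes) and 2 lower (background 15.6%). Tal1 stood at 0.244 of the stem level (0.191 to 0.307) and Lmo2 at 0.459 (0.433 to 0.486). Every gate was also redrawn on the even or the odd markers of its list, with a UMI required of at least 2. The even markers left 59 lymphoid-primed and 765 stem-gated cells, and the folds of Tal1 and Lmo2 were 0.108 and 0.224. With the odd markers they were 0.274 and 0.535, and Lmo2 was no longer 2-fold lower. Tcf3 was 1.44-fold higher, and the interval of Ldb1 held 1.

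In myeloid cells 4 of 6 members were at least 2-fold lower, where 30.4% of 12226 genes were, and none was 2-fold higher, where 10.2% were. Tal1 was at 0.122 (0.110 to 0.135), Lmo2 at 0.242, Tcf12 at 0.380 and Ldb1 at 0.414 of the stem level. Lyl1 stood at 0.605 and Tcf3 at 0.897, whose interval held 1. The members' median was 0.397 and that of all genes 0.743, and Tal1 lay at percentile 6.95 of all folds. These 4 comparisons share the stem gate, so their values are given side by side and were not combined.

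**Figure D3:**
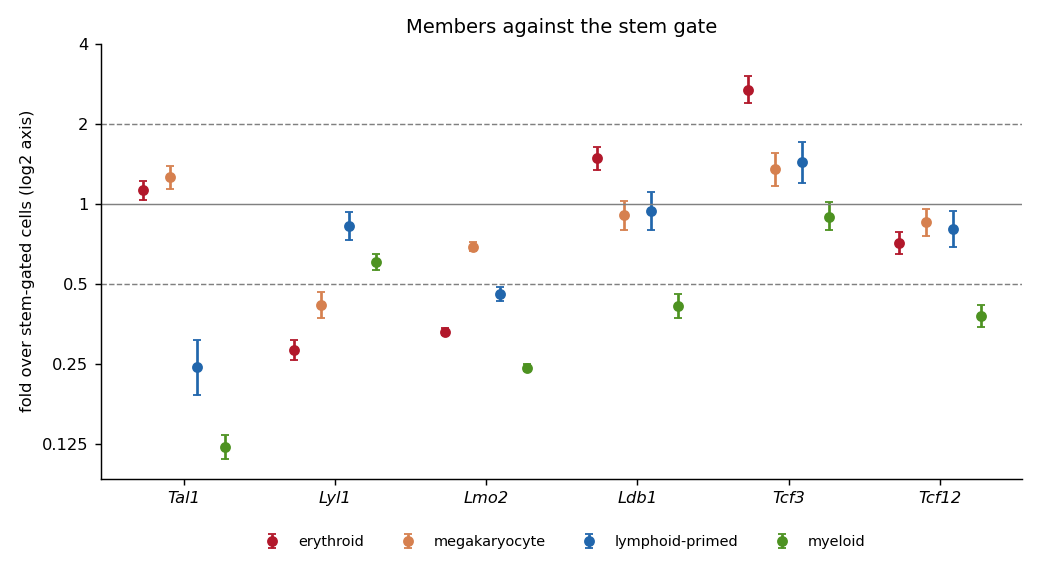
Fold of each member in 4 gates over the stem gate, on a log2 axis, with 95% binomial intervals. The solid line marks equal levels and the dashed lines 2-fold. Tcf3 in erythroid cells, at 2.69, was the only point above the upper line, and the lowest was Tal1 in myeloid cells, at 0.122.

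Within the erythroid gate the cells were ordered by erythroid score and cut into 4 bins of 283 cells, a split chosen after the gates had been seen. Tal1 was higher at high scores, with 89.8, 102, 125 and 124 CPM from the lowest to the highest bin, a last-to-first ratio of 1.38 (1.25 to 1.53). Gata1, which encodes the GATA factor of the erythroid complex, had the same ratio of 1.38 (1.26 to 1.51). Lyl1 went from 44.2 to 34.4 CPM (ratio 0.778, 0.663 to 0.914) and Ldb1 from 122 to 95.2 CPM (ratio 0.779, 0.708 to 0.857).

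Lmo2 was lowest in the second bin and highest in the last, at 307, 284, 311 and 368 CPM. The ratios of the last to the first bin were 1.20 for Lmo2, 1.15 for Tcf3 and 1.17 for Tcf12, each with an interval above 1. All these shifts were small beside that of Gata2, the GATA factor of early progenitors, which had 92.6, 23.3, 7.11 and 2.79 CPM, a ratio of 0.0301 (0.0194 to 0.0449). The last-to-first ratios of the 6 members lay between 0.778 and 1.38 over the same bins.

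**Figure D4:**
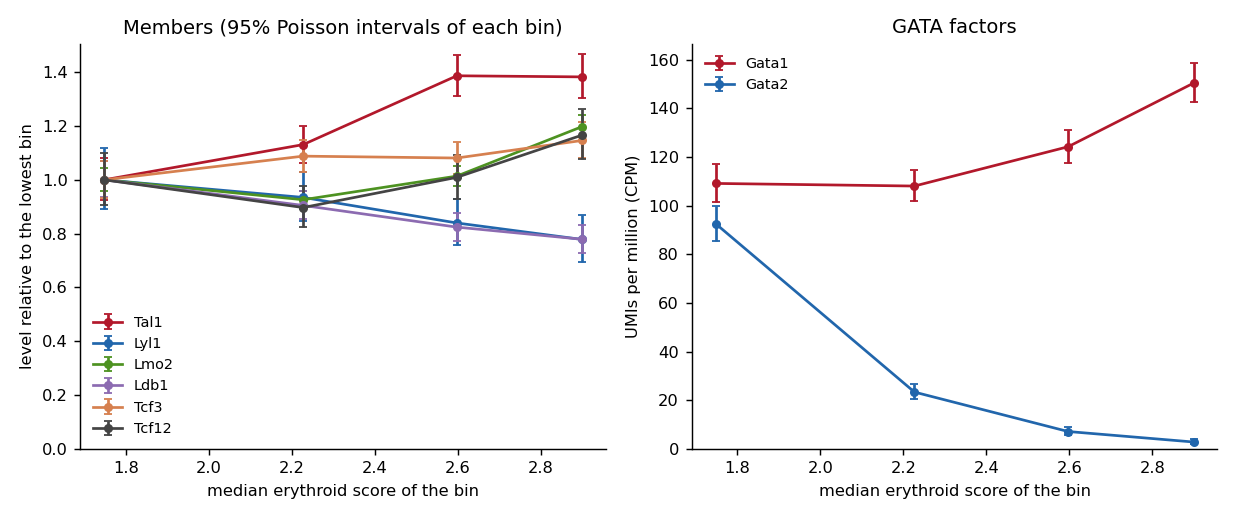
Levels across 4 bins of 283 erythroid-gated cells ordered by erythroid score (horizontal axis, median score of the bin), with 95% Poisson intervals. Left, each member relative to its level in the lowest bin. Right, Gata1 and Gata2 in CPM: Gata2 went from 92.6 to 2.79 CPM while Tal1 ended at 1.38 and Ldb1 at 0.779 of the lowest bin.

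The same split of the megakaryocyte gate gave Tal1 a ratio of 1.24 (1.04 to 1.48) and Lmo2 one of 0.825 (0.766 to 0.889). The intervals of Lyl1, Ldb1, Tcf3 and Tcf12 held 1. Gata2 was still at 237 CPM in the highest bin there (ratio 0.734). In the stem gate, bins of 171 cells had Lmo2 at 890 CPM in the lowest and 1004 CPM in the highest bin (ratio 1.13, 1.05 to 1.21), and the intervals of the 5 other members held 1. The 38 cells that passed both the stem and the megakaryocyte gates had 733 CPM of Lmo2 (669 to 801) and 63.6 CPM of Lyl1 (45.8 to 85.9). Their Lyl1 interval held the megakaryocyte level of 57.6 CPM and not the stem level of 138 CPM. For Tal1, at 89.3 CPM (68.0 to 115), the interval held the stem level of 98.8 CPM and not the megakaryocyte level of 125 CPM.

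The myeloid gate joined 1234 cells that passed the neutrophil list alone, 364 that passed the monocyte list alone and 1543 that passed both. The first held more Lmo2 than the monocyte-only cells, at 279 CPM (273 to 285) against 143 CPM (133 to 153), a 1.95-fold difference (1.82 to 2.11). Tal1, at 16.2 against 10.3 CPM, and Lyl1, at 89.1 against 69.0 CPM, were also higher in the neutrophil-only cells. The E proteins and Ldb1 ran the other way, at 0.585 for Tcf12, 0.709 for Tcf3 and 0.751 for Ldb1, each with an interval under 1. Id2, an inhibitor of E-protein binding to DNA, was at 469 CPM in the monocyte-only cells and 7.65 CPM in the neutrophil-only cells. Tcf4 was 149 and 42.1 CPM. The 1543 cells that passed both lists lay between these parts for Lmo2, Lyl1, Ldb1, Tcf3 and Tcf12. Their Tal1 level of 9.06 CPM (8.09 to 10.1) was under both, with an interval that overlapped the monocyte-only one (7.78 to 13.3).

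Dntt encodes the terminal transferase of early lymphoid cells, and 190 of the 213 lymphoid-primed cells had a UMI of it. For each of the 6 members the interval of the ratio between these cells and the remaining 23 held 1, from 0.663 for Tal1 (0.356 to 1.34) to 1.26 for Ldb1 (0.788 to 2.14). The small number of cells made these intervals wide.

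To compare shares of cells with a UMI, each cell was thinned to 5000 UMIs, which left out 11 stem, 3 erythroid, 3 megakaryocyte, 3 lymphoid-primed and 8 myeloid cells. Tal1 was then seen in 36.7% of stem-gated (33.1 to 40.5), 40.1% of erythroid and 42.4% of megakaryocyte cells, against 11.4% of lymphoid-primed and 5.17% of myeloid cells (4.42 to 6.00). Unthinned, these shares were 55.7%, 92.5%, 82.7%, 30.5% and 20.2%. Gata1, which neutrophils and monocytes lack, had a thinned share of 1.40% in them (1.02 to 1.88) and 4.87% unthinned, beside 5.17% and 20.2% for Tal1. Levels of these genes differed outside the myeloid gate too, and the part of free RNA in the shares was not tested.

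Lmo2 was seen in 97.5% of thinned stem-gated, 96.1% of megakaryocyte, 80.0% of erythroid, 78.1% of lymphoid-primed and 61.6% of myeloid cells (unthinned 99.9%, all 491 cells, 99.6%, 93.4% and 93.7%). In the T or innate lymphoid gate, with a median of 4179 UMIs, 1 of 20 cells (5.0%) had a UMI of it unthinned. The thinned share of Lyl1 was 52.3% in the stem, 49.5% in the lymphoid-primed, 32.3% in the myeloid, 23.2% in the megakaryocyte and 17.4% in the erythroid gate (unthinned 69.9%, 76.1%, 77.4%, 57.2% and 65.4%). Its unthinned order went against that of the CPM and was not read. Between erythroid and stem-gated cells the thinned shares were 46.7% and 19.3% for Tcf3, 40.8% and 29.6% for Ldb1, and 25.9% and 36.4% for Tcf12 (unthinned 93.2% and 33.2%, 93.6% and 48.5%, 79.6% and 52.5%).

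Co-detection of members in 1 cell was set beside the product of their separate shares. Tal1 and Lyl1 were both seen in 18.7% of thinned stem-gated cells (15.8 to 21.9), where the product of the separate shares was 19.2%. A set of Tal1, Lmo2, Ldb1 and either Tcf3 or Tcf12 was seen in 9.12% of erythroid cells (7.51 to 11.0; product 7.92%), 5.05% of stem-gated (product 5.17%) and 3.89% of megakaryocyte cells (product 5.12%). In lymphoid-primed cells it was 0.952% (product 1.40%) and in myeloid cells 0.287% (0.131 to 0.545; product 0.143%), from 2 and 9 cells. Unthinned, 86.0% of erythroid, 46.2% of megakaryocyte and 19.0% of stem-gated cells held this set, as well as 18.3% of lymphoid-primed and 9.01% of myeloid cells. RNA in 1 cell says nothing of whether the proteins met.

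The members' partners were read from 7 lists with 43 genes. Of the 8 GATA and heptad partners, 2 were at least 2-fold higher and 5 lower in erythroid than in stem-gated cells, where 13.4% and 34.1% of all genes were. Gata1 (15.2-fold, 11.6 to 20.4) and Gfi1b (3.06-fold), a repressor of erythroid and megakaryocyte cells, were higher. Gata2, Runx1, Erg, Fli1 and Cbfa2t3, which encodes the corepressor ETO2, were at 0.0968, 0.263, 0.0143, 0.0319 and 0.258. In megakaryocyte cells the counts were 2 and 1, beside 4.84% and 13.3% of all genes. Gata1 (6.11-fold) and Zfpm1 (2.13-fold), the GATA cofactor FOG1, were higher, and Erg was at 0.283. Gata2 was at 0.976 and the ETS factor Fli1 at 1.79 in these cells. Lymphoid-primed cells had 5 of the 8 lower and none higher, beside 15.6% and 5.78% of all genes. Myeloid cells had 7 of the 8 lower and none higher, beside 30.4% and 10.2% of all genes, with Runx1 at 0.641 the exception. The list's median fold was 0.260 in erythroid, 1.49 in megakaryocyte and 0.188 in myeloid cells, beside the medians over all genes given above. It is not given for lymphoid-primed cells because of Gata1.

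Of the 4 tested LDB1 adaptors and stabilisers, Ssbp3, whose product protects LDB1 from degradation, was 2.32-fold higher in erythroid cells, the only 1 called there (13.4% of all genes were). Ssbp2, Ssbp3 and Rlim, a ubiquitin ligase for LDB1, were lower in myeloid cells at 0.292, 0.418 and 0.449 (30.4% of all genes were). No adaptor passed 2-fold in megakaryocyte cells, where 4.84% of all genes were higher and 13.3% lower. The same held in lymphoid-primed cells, where 5.78% were higher and 15.6% lower. Among 7 corepressors, including Kdm1a, Rcor1, Hdac1 and Hdac2, none was at least 2-fold higher in any gate, beside 4.84% to 13.4% of all genes. Phf21a was the 1 at least 2-fold lower in erythroid (0.0904) and myeloid cells (0.269), beside 34.1% and 30.4% of all genes. None was 2-fold lower in megakaryocyte or lymphoid-primed cells, beside 13.3% and 15.6%. Hdac2 was at 1.48 in erythroid, 1.42 in megakaryocyte and 1.22 in lymphoid-primed cells. Hdac1 and Rcor1 were at 1.31 and 1.25 in erythroid cells, and all these intervals were above 1. Other intervals were under 1. They were those of Kdm1a (0.877) and Cbfa2t2 (0.710) in erythroid cells, Rcor1 (0.725) and Phf21a (0.610) in lymphoid-primed and Phf21a (0.591) in megakaryocyte cells. In myeloid cells they were those of Cbfa2t2 (0.538), Sin3a (0.671), Kdm1a (0.677), Rcor1 (0.701) and Hdac1 (0.851), beside Phf21a. The adaptors' median fold was 0.667, 0.892, 0.788 and 0.433 in erythroid, megakaryocyte, lymphoid-primed and myeloid cells, and that of the corepressors 0.885, 1.08, 1.12 and 0.677.

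Of the other LMO and TAL genes only Lmo1 and Lmo4 reached 50 UMIs. Lmo1 was 3.15-fold higher in myeloid (2.59 to 3.86) and at 0.0285 in erythroid cells. It had 17 UMIs in erythroid and 105 in stem-gated cells, so in that comparison it passed the 50 UMIs only through the stem gate. The list's median, over these 2 genes, was 0.881 in megakaryocyte, 1.34 in lymphoid-primed and 2.26 in myeloid cells, and is not given for erythroid cells. Lmo4 was at 0.193 in erythroid, 0.868 in megakaryocyte, 1.67 in lymphoid-primed and 1.63 in myeloid cells. Tal2, Lmo3, Nhlh1 and Nhlh2 had at most 2 UMIs in any of these gates.

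In the list of Tcf4 and the ID inhibitors, Tcf4 was at 0.253 in erythroid cells, where 34.1% of all genes were at least 2-fold lower, and at 0.628 in megakaryocyte cells. Id2 was at 0.0688 and 0.147 in these gates. It had 48 UMIs in erythroid, 24 in megakaryocyte and 123 in stem-gated cells, so it passed the 50 UMIs only through the stem gate and is not counted. Tcf4 was 1.77-fold higher in lymphoid-primed cells, where neither gene passed 2-fold. In myeloid cells Tcf4 was at 0.354 and Id2 at 2.34. That Id2 value came from the 364 monocyte-only cells described above, at 469 CPM, since the remaining myeloid cells had 6.76 to 7.65 CPM, below the 19.1 CPM of the stem gate. Id1 had 785 UMIs in myeloid and 16 in stem-gated cells and passed the 50 UMIs through the myeloid gate.

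The textbook targets of the complex held red cell and stem cell genes. The red cell genes Epb42, Slc4a1 and Alas2 had 991, 2044 and 591 UMIs in the erythroid gate and 6, 3 and 3 in the stem gate. They passed the 50 UMIs only through the erythroid gate, so they are given as counts and not among the calls. Kit and Hhex were lower in erythroid cells, at 0.218 and 0.207. In megakaryocyte cells Kit and Hhex were both at 0.407. Kit was at 0.381 in lymphoid-primed and 0.202 in myeloid cells. Hhex was at 0.404 in myeloid cells (0.374 to 0.436) and at 1.01 in lymphoid-primed cells, with an interval that held 1. Of all genes, 34.1% in erythroid, 13.3% in megakaryocyte, 15.6% in lymphoid-primed and 30.4% in myeloid cells were at least 2-fold lower. Kit was also a sorting marker of the sample, so cells with little Kit protein were removed before capture.

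Among the lymphoid targets of E proteins, all 4 tested genes were at least 2-fold lower in erythroid cells, where 34.1% of all genes were. Cdkn1a was at 0.101 there (0.0736 to 0.139). It was 4.08-fold higher in lymphoid-primed and 2.21-fold higher in megakaryocyte cells, where 5.78% and 4.84% of all genes were 2-fold higher. Foxo1 was lower in all 4 gates, from 0.0988 in erythroid to 0.429 in lymphoid-primed cells. In lymphoid-primed cells it had 30 UMIs and passed the 50 UMIs through the 132 of the stem gate. Gfi1 was 3.34-fold higher in myeloid cells and at 0.0619 in erythroid (20 UMIs) and 0.0395 in megakaryocyte cells (3 UMIs, 0.00792 to 0.122). For these 2 low values Gfi1 passed the 50 UMIs only through the 57 UMIs of the stem gate. Vpreb1 was lower in erythroid cells, at 0.430. Rag2 had 41 UMIs in lymphoid-primed and 1 in stem-gated cells, under the 50 UMIs required for a call.

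**Figure D5:**
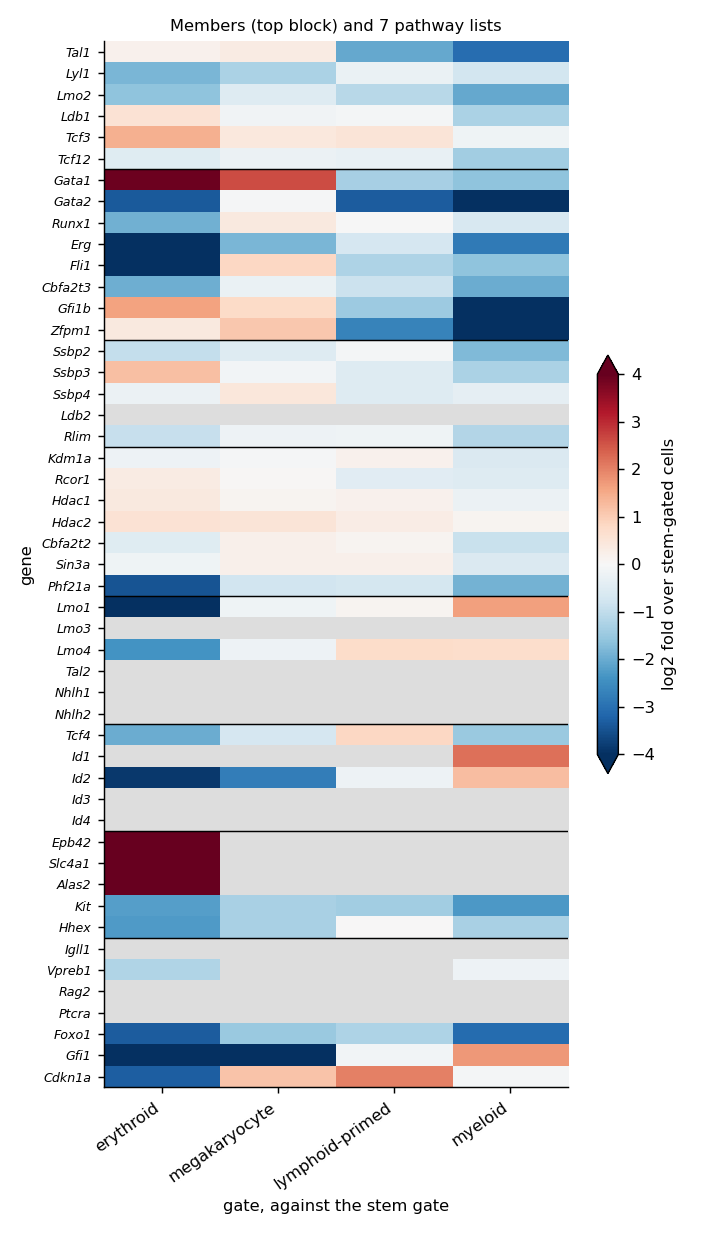
Log2 fold over the stem gate (colour, cut at 4 in both directions) for the 6 members in the top block and the 43 genes of 7 lists in the blocks below, for 4 gates. Grey cells mark genes with under 50 UMIs in both gates together or with no UMI in the stem gate. In the erythroid column Gata1 is at the red end, as are the red cell targets, which passed the 50 UMIs only through the erythroid gate. Erg, Fli1 and Lmo1 are at the blue end, and Lmo1 passed only through the stem gate. The members span 0.283 to 2.69-fold.

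Genes with a pattern over the 6 gates most like that of a member were ranked among 9634 genes with at least 500 UMIs, by the root mean square difference of centred log2(CPM + 1). The nearest to Tal1 was Vamp5, a vesicle protein gene, at 0.0852, followed by Atp8a1 at 0.276. Tcf12 had Atf7ip (0.0627) and Ankrd17 (0.0952), Tcf3 had Fntb (0.0672) and Smpd4 (0.118), and Ldb1 had Dmxl1 (0.0995) and Lpin2 (0.134). Lmo2 was nearest to Arhgap12 (0.125) and Lyl1 to Plekhm3 (0.194). Among the members themselves Ldb1 and Tcf3 were most alike (0.333) and Tal1 and Lyl1 least (1.60). The measure rests on 6 summed levels of 1 library.

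The protein-coding neighbours of Tal1 were looked at after their values had been seen. Stil ends 13229 bases before Tal1 and Pdzk1ip1 begins 16952 bases after it, on the same strand. Pdzk1ip1 was at 195 CPM in stem-gated and 151 CPM in megakaryocyte cells, and at 28.0 CPM in erythroid, 12.3 CPM in lymphoid-primed and 3.27 CPM in myeloid cells. Its level was thus 6.96-fold lower in erythroid than in stem-gated cells (6.40 to 7.57), where that of Tal1 was 1.13-fold higher. Stil, a cell division gene, was lowest in the stem gate, at 6.07 CPM, and between 13.4 and 21.7 CPM in the other 4 gates.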

How the data were processed

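The deposited values are whole-number UMI counts per gene and barcode, which the authors made with Cell Ranger 6.0.2 and mm10 per the labels, before their own filter on cells and with no normalization. The labels describe a bulk RNA kit, but cell barcodes and the methods point to 10x Chromium capture, and the values were read as such. The study's filter was applied here (UMIs between 1000 and 50000, genes between 1000 and 6500, mitochondrial UMIs under 7%). Scores on 11 marker lists gave the gates. The set values (stem 0.6, erythroid 1.25, megakaryocyte 0.75, lymphoid-primed 0.5, neutrophil 1.75, monocyte 0.6, basophil or mast 1.25) were placed at low points of the score histograms and not altered once the members had been seen. Cells of 2 lineages were left out as possible doublets and were not shown to be doublets. Scrublet (scanpy 1.11.5, 6% expected) called 268 cells (3.51%). These held 134 of the cells of 2 lineages (16.6% of them) and 127 cells of the 5 main gates (2.24%). The latter stayed in the gates, and leaving out the called cells was an alternative only. The eosinophil, dendritic, B lineage and T or innate lymphoid gates held 4, 4, 2 and 20 cells and were given no levels but those named.

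UMIs were summed per gate and set against the gate's total UMIs. With 1 library no test was run. Exact intervals at 95% were computed with scipy 1.17.1 and cover counting error only. The interval code was tested on simulated counts for 11320 genes of the erythroid and stem gates, where 95.6% of intervals held the true fold. The counts were drawn as Poisson, which the intervals assume. The test thus checked the code and not the spread between cells or libraries. Folds were called at 2, among genes with at least 50 UMIs in both gates together, and a gate at 0 counted as 3 UMIs. All 6 members are named. Genes of the 7 lists are named where they passed 2-fold or are partners of a member, and the genes most alike are the nearest by the measure given. The members, markers and lists were chosen with earlier results of these data known. The bins, the Dntt and myeloid splits and the cells of both the stem and megakaryocyte gates were chosen after the data had been seen. Promoter windows are RefSeq sequences of GRCm38.p6, matched by symbol for 5 of the 6 members, and gene positions are from GENCODE. Sequences of Lmo2 and of proteins were not used here. Some genes of the target list are not reported here and were left out of its counts. No median is given for a list in a comparison where any of its genes reached 50 UMIs only through the gate where it was high. Alternatives were 2 gate settings, 2 cell filters, cells of 2 lineages kept, doublet calls left out, another total and thinning to 5000 UMIs. The odd or the even markers of each list were the last, with 2 markers in place of 3 required to have a UMI.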

Additional observations from a re-analysis of the deposited data

How the results depend on the processing

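Across 10 alternatives, 240 recomputed folds of the members over the stem gate held 24 that left the counting interval of the value reported. No member called 2-fold higher or lower changed direction, and the 1 fold that crossed 1 was that of Ldb1 in lymphoid-primed cells (0.944, and 1.04 with gate values set at 0.75 of those used). The count of members at least 2-fold lower in lymphoid-primed cells was 1 in place of 2 when the gates used only the odd markers of each list, where Lmo2 stood at 0.535. The 2 folds that moved by over 1.5 times were Tal1 and Lmo2 in lymphoid-primed cells, at 0.108 and 0.224 with the even markers. The other 7 counts did not change, and the Tal1 to Lyl1 ratio of erythroid over stem-gated cells ranged from 3.78 to 4.10. Without a cell filter the erythroid gate held 1493 in place of 1132 cells, and no fold moved beyond 1.05 times. The cause of these shifts was not tested.

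No paired analysis was possible because there is 1 library, and no replicate was left out. Variation between mice, between captures and between sequencing runs cannot be seen in these data. Lymphoid-primed values rest on 213 cells, and their Tal1 level on 82 UMIs. The 20 cells of the T or innate lymphoid gate allow no level under 26.1 CPM to be told from 0.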
